A study of Mus musculus with 6 samples.

Results

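Nitric oxide and natriuretic peptides relax arteries through 1 second messenger, cyclic GMP. The genes described here are 10 members of that pathway, chosen by name with earlier results of these data known. They are the soluble guanylate cyclase subunits Gucy1a1 and Gucy1b1 (older symbols Gucy1a3 and Gucy1b3), the cyclic GMP-dependent protein kinase Prkg1, its substrate Mrvi1, the phosphodiesterases Pde5a, Pde3a and Pde1a, and the natriuretic peptide receptors Npr1, Npr2 and Npr3. All probe sets whose only gene symbol is one of these were taken, which gave 22 probe sets for 10 of the 18193 genes named on the array.

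RNA levels were read in arteries of the mesentery, which supply the gut, with 1 Affymetrix array for each mouse. The 3 control mice (animals 30, 74 and 75) carried loxP-flanked beta1 integrin and no Cre recombinase. The 3 knockout mice (animals 72, 73 and 86) carried the same floxed alleles and an SM22alpha-driven Cre, named sm22alphaCRE in the labels, which acts in smooth muscle. All 6 animals were of a mixed background that included FVB, SVJ129 and C57BL/6. All of them, controls too, had received 14 daily doses of 1 mg tamoxifen from the age of 5 weeks and were 7 weeks old. The RNA came from whole vessels cleared of fat and lymph tissue, so it held all cell types of the wall. Adipocyte RNA was still present and varied between arrays, as given below. Animal 86 is the only one whose title has the letter F after the number, where the other 5 have M.

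As background, nitric oxide made in the endothelium diffuses into smooth muscle cells and activates soluble guanylate cyclase, a heterodimer of an alpha and a beta subunit. Natriuretic peptides instead bind receptors at the cell surface that are guanylate cyclases themselves. Cyclic GMP activates a protein kinase that lowers the calcium level and the calcium sensitivity of the contractile apparatus, and phosphodiesterases end the signal by hydrolysing the nucleotide.

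Of the 10 members, 9 had a probe set above the filter on low signal and 0 of these 9 passed the threshold, a limma adjusted p under 0.05 over the 11378 genes tested. Among all genes tested 2.63% passed it, 0.694% as lower and 1.93% as higher in the knockout. At an unadjusted limma p under 0.05 there were 4 of the 9 members, against 21.4% of all genes. A total of 8 members had a lower mean in knockout than in control arteries, where 57.1% of all genes did. The median difference of the 9 was -0.42 on the log2 scale, beside -0.05 over all genes tested and -0.34 over the smooth muscle markers. Groups of 3 arrays did not overlap for 1 member, Gucy1a1, whereas 28.1% of all genes tested had no overlap, 15.1% with the knockout below and 12.9% with it above. Read by probe set, 17 of the 22 were above the filter and 0 of these passed the threshold (1.65% of all probe sets did). An unadjusted limma p under 0.05 was reached by 3 of the 17 (19.1% of all), and 1 had no overlap (26.1% of all, 13.4% with the knockout below). In whole arteries, fewer cells of a type and less RNA per cell cannot be told apart.

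**Figure D1:**
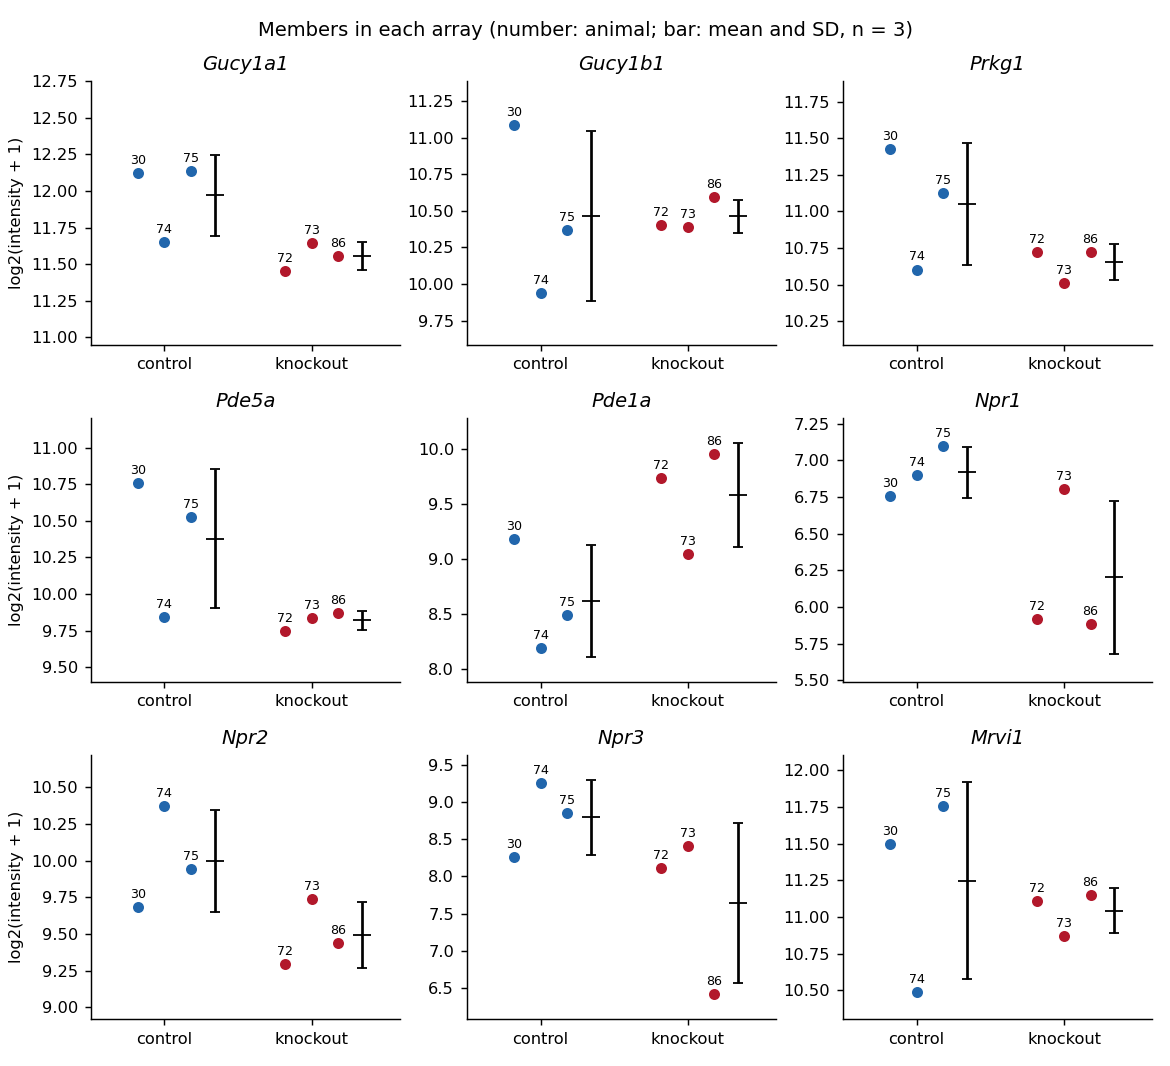
Signal of the 9 members above the filter in each array, as log2(intensity + 1) after quantile normalization, with the animal number beside each point and the mean and SD of 3 arrays at its side. In Gucy1a1 all 3 knockout arrays lie below the control arrays, by the narrowest of margins for control 74 and knockout 73, and in the other 8 members the groups overlap.

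The floxed gene and the tissue were checked first. Itgb1, the gene of beta1 integrin, had log2 values of 11.80, 11.04 and 11.20 in controls 30, 74 and 75 and of 10.51, 10.56 and 10.76 in knockouts 72, 73 and 86. It stood at 60.1% of control (limma adjusted p = 0.129). Smooth muscle was present in all arrays, with the smooth muscle myosin gene Myh11 at 12.86 to 13.56. Myh11 was lower in every knockout array than in any control array (difference -0.46, limma adjusted p = 0.136), as was Tagln, the gene of SM22alpha (difference -0.33, limma adjusted p = 0.235). Groups did not overlap for 5 of the 12 smooth muscle markers, all with the knockout below, as for 15.1% of all genes. Acta2, smooth muscle actin, differed by -0.03 in its brightest probe set, which lay at the top of the signal range. Its other probe sets above the filter differed by -0.56 and -0.87. Groups overlapped in all of them. The mean of 12 smooth muscle markers lay at 12.54 to 13.09 in control and 12.35 to 12.65 in knockout arrays, with 11 of the 12 lower in the knockout and 0 past the threshold. The adipocyte gene Adipoq stood at 11.31 to 13.53 in the controls and 11.63 to 12.64 in the knockouts. Its mean signal was at percentile 98.3 of the genes tested, so adipocyte RNA was present. Of 11 macrophage markers tested 11 had higher means in the knockout and 0 passed the threshold, with list means of 7.90 to 8.91 in control and 9.40 to 11.38 in knockout arrays. Of 7 proliferation markers tested 7 passed the threshold as higher, of which Cdk1, Birc5 and Plk1 were under the filter level in every control and so were tested only through the knockout signal. The list mean stood at 6.50 to 6.61 in control and 9.63 to 10.28 in knockout arrays. What part these shifts have in the values of the cyclic GMP genes was not tested. Levels relative to the smooth muscle markers are given below, but they cannot tell fewer muscle cells from less marker RNA per cell.

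Soluble guanylate cyclase is the nitric oxide receptor of smooth muscle. Gucy1a1, its alpha subunit, had log2 values of 12.12, 11.65 and 12.13 in controls 30, 74 and 75, and of 11.46, 11.65 and 11.56 in knockouts 72, 73 and 86. All 3 knockout arrays were below all controls, although control 74 and knockout 73 nearly met. The means were 11.97 ± 0.27 (SD, n = 3) and 11.55 ± 0.09 (SD, n = 3). The difference of -0.42 (SE 0.17, 95% interval -0.81 to -0.02) left 74.9% of the control level and missed the threshold (limma adjusted p = 0.217). Its exact permutation p was 0.1, the smallest that 3 arrays against 3 can give. The other Gucy1a1 probe sets stood at -0.38 and -0.17, with overlapping groups in both.

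Gucy1b1, the beta subunit that carries the haem to which nitric oxide binds, averaged 10.46 ± 0.58 (SD, n = 3) in the controls, and the knockouts averaged 10.46 ± 0.11 (SD, n = 3). Its values ran from 9.94 in control 74 to 11.09 in control 30, and the 3 knockout arrays, at 10.39 to 10.59, lay between these. The difference of -0.0037 had a 95% interval of -0.67 to 0.66, so a difference of either sign within that interval was not excluded. The other probe set of Gucy1b1 differed by 0.03. Relative to the alpha subunit within each array, the beta subunit did not separate the groups.

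The genes of both subunits are neighbours on mouse chromosome 3, with 0 protein-coding genes between them in RefSeq. Their promoters are shown because the subunits form 1 enzyme. The data do not show that the subunits differed unequally. Gucy1a1 less Gucy1b1 within an array was 1.04 to 1.76 in control and 0.97 to 1.26 in knockout arrays, with overlapping groups. Each sequence is the 250 bases up to the annotated start in RefSeq (GRCm38.p6), on the minus strand, at chr3:82145651-82145900 for Gucy1a1 and chr3:82074712-82074961 for Gucy1b1. Capitals mark GGGCGG (GC box) and TGGGAA (RBPJ core) on either strand.
Gucy1a1: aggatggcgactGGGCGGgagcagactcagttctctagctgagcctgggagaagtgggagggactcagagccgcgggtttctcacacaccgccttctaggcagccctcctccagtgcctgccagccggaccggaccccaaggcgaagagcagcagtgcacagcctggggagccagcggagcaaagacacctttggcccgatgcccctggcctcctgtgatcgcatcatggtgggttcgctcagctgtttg
Gucy1b1: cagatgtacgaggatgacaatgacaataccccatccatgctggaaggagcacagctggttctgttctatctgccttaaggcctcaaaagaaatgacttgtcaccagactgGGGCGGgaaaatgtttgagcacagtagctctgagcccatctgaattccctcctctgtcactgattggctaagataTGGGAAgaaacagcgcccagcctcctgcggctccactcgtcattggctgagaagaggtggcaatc
The Gucy1a1 window has a GC content of 64% and a GC box 238 bases before the start, and the Gucy1b1 window has a GC content of 51.2%, a GC box at 140 bases and an RBPJ core at 65 bases before the start. A second annotated start of Gucy1a1 has a window that is not printed, with RBPJ cores 110, 78 and 60 bases before it, so both genes have an RBPJ core in a window. Which start these arteries use was not measured.

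Motifs were searched on both strands in the same 250 bases of all 15 windows that RefSeq gives for 9 of the members, and in all 32851 windows of the table. The GC box was in 6 of the 15 and in 32.7% of all windows. The RBPJ core was in 7 of the 15 and in 21.6% of all. The TEAD core GGAATG was in 3 (12.6% of all), and TATAAA was in 2, both of Pde1a (12.4% of all). In 1 Mrvi1 window the TEAD and RBPJ matches overlap. The CArG box of serum response factor, TGANTCA (AP-1) and TGACGTCA (cyclic AMP response element) were in 0 of the 15, and in 1.47%, 6.75% and 1.55% of all windows. These matches describe the letters of the windows.

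Prkg1, the cyclic GMP-dependent kinase of smooth muscle, had log2 values of 11.43, 10.60 and 11.12 in controls 30, 74 and 75, and of 10.72, 10.51 and 10.72 in knockouts 72, 73 and 86. Controls 30 and 75 were above all knockout arrays, and control 74 lay within their range. The difference was -0.40 (SE 0.22, 95% interval -0.92 to 0.12, limma adjusted p = 0.343), or 75.8% of control. It was -0.21 without control 30 and -0.62 without control 74. The other Prkg1 probe set differed by -0.23 with overlapping groups.

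Mrvi1 encodes the kinase substrate IRAG, which restrains calcium release from internal stores. Its values were 11.50, 10.49 and 11.76 in controls 30, 74 and 75 and 11.11, 10.87 and 11.15 in knockouts 72, 73 and 86. The knockout arrays fell inside the range of the controls. The difference was -0.21 (95% interval -0.97 to 0.56, limma adjusted p = 0.745), and -0.26 in the other probe set.

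Pde5a, which hydrolyses cyclic GMP and is the target of sildenafil, stood at 10.76, 9.85 and 10.53 in controls 30, 74 and 75 and at 9.75, 9.84 and 9.87 in knockouts 72, 73 and 86. Controls 30 and 75 were above all knockout arrays, and control 74 was among them. The means were 10.38 ± 0.47 (SD, n = 3) and 9.82 ± 0.06 (SD, n = 3), a difference of -0.56 (SE 0.24, 95% interval -1.12 to 0.0048, limma adjusted p = 0.237). Without control 74 the difference was -0.82 and passed the threshold (limma adjusted p = 0.0463), and without control 30 it was -0.37 (limma adjusted p = 0.376). The x in this probe set's suffix means that some of its probes can match other sequences. A Pde5a probe set without that suffix differed by -0.70, again with control 74 as the only control array inside the knockout range, and the remaining probe set differed by 0.06. The Pde5a promoter is printed because Pde5a was the member whose call turned on a single array. It covers the 250 bases up to the start, at chr3:122728908-122729157 on the plus strand of GRCm38.p6, with the same motifs in capitals.
Pde5a: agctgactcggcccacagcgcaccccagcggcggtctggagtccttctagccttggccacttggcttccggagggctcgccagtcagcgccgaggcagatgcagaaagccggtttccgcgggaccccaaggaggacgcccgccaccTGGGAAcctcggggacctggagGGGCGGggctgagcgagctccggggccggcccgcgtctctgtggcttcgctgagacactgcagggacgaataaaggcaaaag
The RBPJ core lies 104 bases and the GC box 82 bases before the start, in a window with a GC content of 68.4%.

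Pde1a, a phosphodiesterase switched on by calcium and calmodulin, was the only tested member with a higher mean in the knockout. Its log2 values were 9.19, 8.19 and 8.49 in controls 30, 74 and 75 and 9.74, 9.05 and 9.96 in knockouts 72, 73 and 86. Knockouts 72 and 86 were above all controls, and knockout 73 lay below control 30. The means of 8.62 ± 0.51 (SD, n = 3) and 9.58 ± 0.47 (SD, n = 3) differed by 0.96 (SE 0.33, 95% interval 0.19 to 1.73), a fold of 1.94. It did not pass the threshold (limma adjusted p = 0.161). A second Pde1a probe set was under the filter in signal, with deposited intensities of 2.78 to 17.5, and was not tested. It differed the other way, by -0.80, with overlapping groups.

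Pde3a encodes a phosphodiesterase that hydrolyses cyclic AMP and is inhibited by cyclic GMP. All 3 of its probe sets were under the filter level of 6.10, so the gene has no value in the comparison of filtered genes. In the brightest on average, the values were 5.77, 5.17 and 5.48 in controls 30, 74 and 75 and 6.32, 5.79 and 6.74 in knockouts 72, 73 and 86. All knockout arrays were above all controls, by 0.02 between control 30 and knockout 73. The difference was 0.81, which missed the threshold in a fit of all probe sets without a filter (limma adjusted p = 0.321), where 0.572% of probe sets passed. The other Pde3a probe sets differed by 0.16 and 0.61 with overlapping groups.

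**Figure D2:**
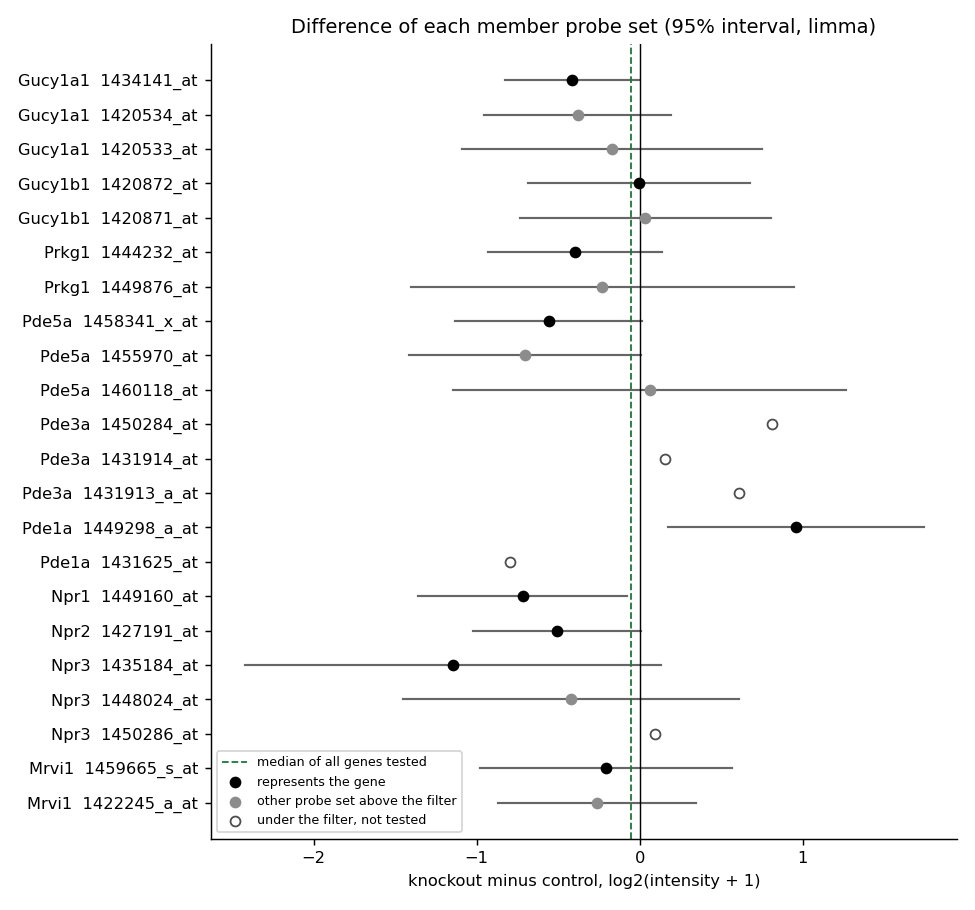
Knockout minus control difference on the log2(intensity + 1) scale for all 22 member probe sets, with 95% intervals from the limma fit by probe set for the 17 above the filter and open circles for the 5 under it. The dashed line is the median of all genes tested, and 14 of the 17 tested probe sets lie below 0.

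The natriuretic peptide receptors had lower means in the knockout. Npr2, the guanylate cyclase receptor of C-type natriuretic peptide, had values of 9.68, 10.37 and 9.94 in controls 30, 74 and 75 and of 9.30, 9.74 and 9.44 in knockouts 72, 73 and 86. Knockout 73 was the only knockout array above a control. The difference was -0.51 (SE 0.21, 95% interval -1.01 to -0.0022, limma adjusted p = 0.232), or 70.4% of control, and it was -0.32 without control 74.

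Npr1, the receptor of atrial and B-type peptides, had values of 6.76, 6.90 and 7.10 in controls 30, 74 and 75 and of 5.92, 6.81 and 5.88 in knockouts 72, 73 and 86. Knockouts 72 and 86 were below all controls and knockout 73 was within their range. The difference was -0.72 (SE 0.27, limma adjusted p = 0.189). The mean of 6.20 ± 0.52 (SD, n = 3) in the knockout was close to the filter level. Endothelial markers, of which 10 of 11 were lower in the knockout and 0 passed the threshold, ran in the same order over the knockout arrays, with list means of 10.50, 11.05 and 10.33 in knockouts 72, 73 and 86. In controls 30, 74 and 75 these markers stood at 10.88, 11.21 and 11.07, an order that Npr1 did not follow. Their part in the Npr1 values was not tested.

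Npr3, the clearance receptor, which binds all 3 peptides and has no cyclase domain, had the largest knockout SD of the tested members (1.08, n = 3). Its values were 8.26, 9.26 and 8.86 in controls 30, 74 and 75 and 8.11, 8.41 and 6.42 in knockouts 72, 73 and 86. Knockout 86 stood far below the other 5 arrays, whereas knockout 73 was above control 30. The difference was -1.15 (SE 0.53, 95% interval -2.41 to 0.12, limma adjusted p = 0.269), and it was -0.53 without knockout 86. The second Npr3 probe set above the filter was lowest in knockout 86 as well, at 5.27, and differed by -0.42. The probe set under the filter did not show this, with 5.49 in knockout 86 and 5.27 to 6.13 in the controls.

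Most members differed more among controls than among knockouts. In 7 of the 9 members the control SD exceeded the knockout SD, as in 61.1% of all genes and in 10 of 12 smooth muscle markers. Npr1 and Npr3 had the larger SD in the knockout. The median SD of the members was 0.47 in control and 0.15 in knockout arrays, beside 0.21 and 0.17 over all genes tested. By the brightest probe set of each gene, control 74 was the lowest control for Gucy1a1, Gucy1b1, Prkg1, Pde5a, Pde1a and Mrvi1, and the highest for Npr2 and Npr3. In the other Npr3 probe set above the filter control 74 was the lowest instead (5.77, beside 6.96 in control 30 and 6.67 in control 75). In the other Gucy1b1 probe set the lowest was control 75 (7.88, beside 8.14 in control 74). The smooth muscle marker mean was also lowest in control 74 among the controls (12.54, beside 13.09 in control 30 and 13.04 in control 75), and the adipocyte marker mean was highest there (11.20, beside 8.93 and 10.70). Fibroblast markers had means of 10.32, 11.00 and 11.08 in controls 30, 74 and 75.

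**Figure D3:**
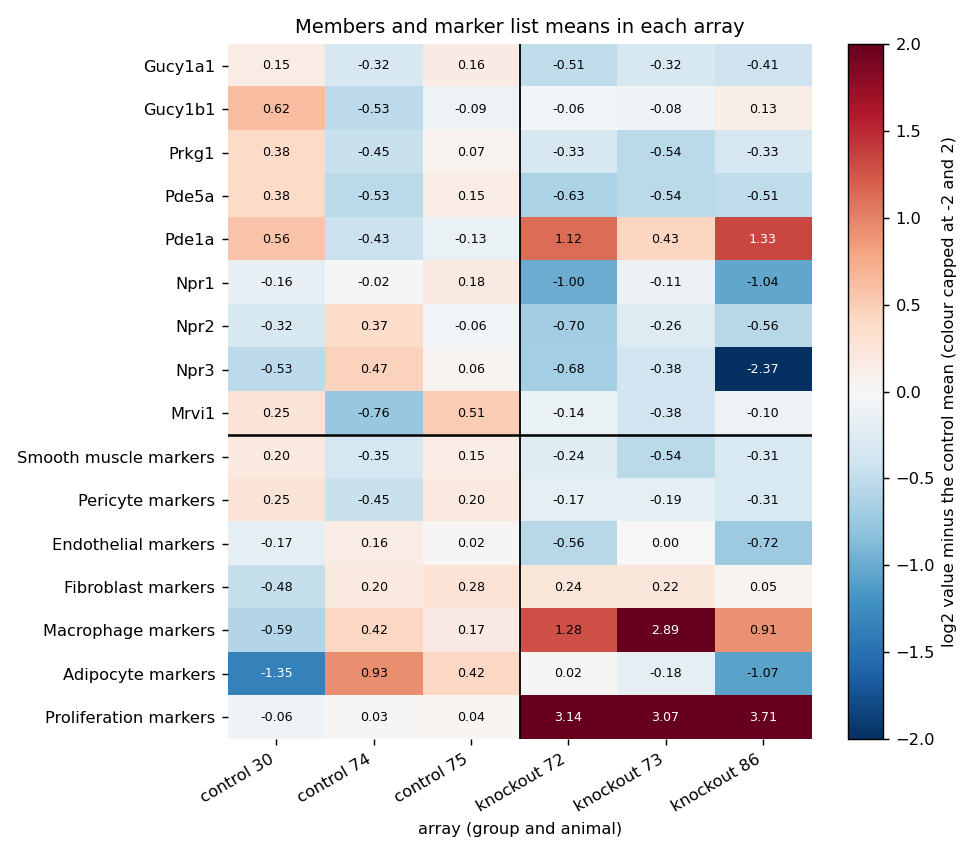
Log2 value of each member, by its brightest probe set, and mean of each marker list in each array, less the mean of the 3 control arrays. Gucy1a1, Gucy1b1, Prkg1, Pde5a, Pde1a and Mrvi1 are below the control mean in control 74, where the smooth muscle and pericyte markers are low as well, while Npr2 and Npr3 are above it, with the adipocyte and macrophage markers.

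When each array was centred on its smooth muscle markers in place of quantile normalization, the median of all genes tested moved up by 0.38 to 0.33. On this scale Pde1a differed by 1.34 (SE 0.26, 95% interval 0.74 to 1.94) and passed the threshold (limma adjusted p = 0.0253), where 4.56% of all genes did. The differences of Prkg1 and Gucy1a1 came to -0.05 (95% interval -0.51 to 0.40) and -0.08 (-0.57 to 0.41), and that of Pde5a to -0.19 (-0.70 to 0.32). Gucy1b1 and Mrvi1 turned to 0.37 (-0.20 to 0.94) and 0.14 (-0.42 to 0.70). Npr3 stood at -0.76, Npr1 at -0.30 and Npr2 at -0.14. So relative to the smooth muscle markers, 8 of the 9 members had intervals that included 0, which does not show that they were equal. The median of the members was -0.08 on this scale, still below the 0.33 of all genes tested.

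Differences between members within an array leave out whatever moves all genes of that array alike. Of the 36 pairs of tested members, the within-array difference separated the groups for 7, a smaller share than the 29.1% of all pairs of tested genes, so the count is no result about the members. Pde1a was in 5 of the 7, out of its 8 pairs, and 35.6% of all genes separated the groups when set against Pde1a. The pairs described here were picked out after their values were seen and carry no test. The log2 value of Pde5a less that of Pde1a was 1.57, 1.65 and 2.04 in controls 30, 74 and 75 and 0.01, 0.79 and -0.08 in knockouts 72, 73 and 86. That difference was lower by 1.52 on average in the knockout, and its lowest control and highest knockout value were 0.78 apart. For Prkg1 less Pde1a the values were 2.24, 2.41 and 2.63 in the controls and 0.98, 1.46 and 0.77 in the knockouts. The other pairs without overlap were Gucy1a1, Gucy1b1 and Mrvi1 with Pde1a, and Gucy1b1 with Prkg1 and Pde5a. The lowest and highest values of the groups were only 0.02 apart for Gucy1b1 with Prkg1. A difference within an array does not say which of its probe sets differed.

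**Figure D4:**
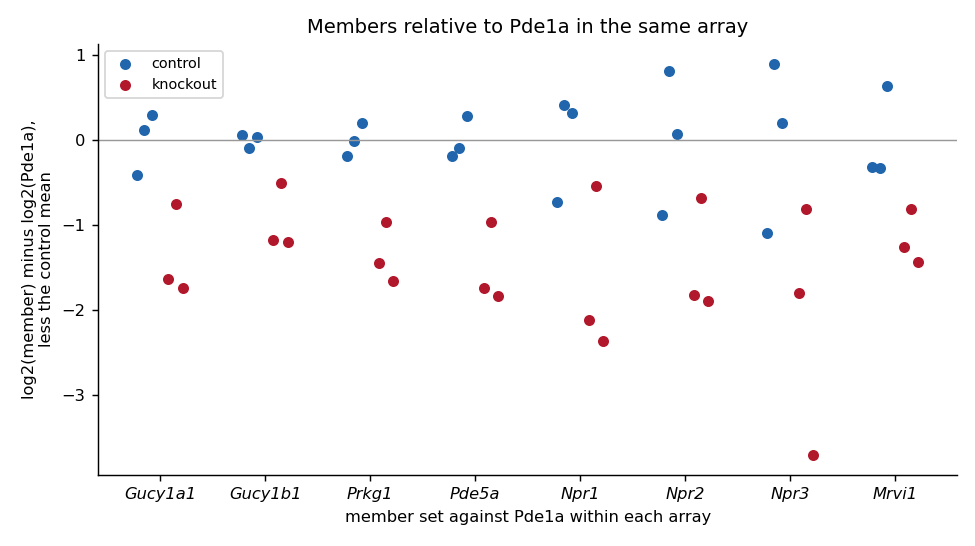
Log2 value of each member less that of Pde1a in the same array, set to a mean of 0 in the controls, with 3 control and 3 knockout arrays per member. The groups are apart for Gucy1a1, Gucy1b1, Prkg1, Pde5a and Mrvi1 and overlap for Npr1, Npr2 and Npr3.

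Other genes of the pathway, and genes of the cyclic AMP arm, were read from 6 lists. Of these, 73 genes were tested and 3 passed the threshold, all higher in the knockout. Among all genes 2.63% passed and 1.93% were higher. The cyclic AMP arm, another second messenger, held 20 of the 73 genes and 2 of the 3 calls. The remaining call was Trpc6, a kinase target. A share of 3 over 73 genes is near that of all genes. In the 16 genes of nitric oxide supply 0 passed, 10 were lower and the median was -0.15. Nos3, the endothelial nitric oxide synthase, had values of 11.29, 11.60 and 11.18 in the controls and 10.93, 10.60 and 10.81 in the knockouts, in the order of animals given above. All knockout arrays were below all controls (difference -0.58, SE 0.16, limma adjusted p = 0.117). Pecam1, a defining endothelial marker, differed by -0.86 with no overlap (limma adjusted p = 0.124), the lowest of the 11 endothelial markers. The median of the 11 was -0.39. Groups did not overlap for 4 of them, all with the knockout below, as for 15.1% of all genes. Nos1ap, an adaptor of the neuronal synthase, stood at -0.76 and Cyb5r3, a reductase that reduces the haem of soluble guanylate cyclase, at 0.63, both with no overlap (limma adjusted p = 0.109 and 0.147).

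The natriuretic peptide ligands were under the filter. Deposited as dim probe sets, Nppa had log2 values of 1.00 to 3.59 over the 6 arrays, Nppb of 3.38 to 4.61 and Nppc of 4.66 to 5.68, and none of the 3 separated the groups. Of 3 tested genes of peptide processing and breakdown 0 passed. Corin, the protease that cleaves the atrial peptide precursor, varied widely, with 9.64, 8.47 and 9.11 in controls 30, 74 and 75 and 8.49, 6.14 and 7.53 in knockouts 72, 73 and 86 (difference -1.68, SE 0.59, limma adjusted p = 0.173). Mme, the peptidase neprilysin, stood at -1.05 and Furin at 0.05, with overlapping groups.

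Among other guanylate cyclases and kinases, Gucy1a2, an alternative alpha subunit, differed by -0.28 and Prkg2 by -0.06, and the other 4 genes named on the array were under the filter. Of 14 other phosphodiesterases 0 passed, 9 were lower and the median was -0.12. The smallest p-values were those of Pde8b at -0.52, the calmodulin-dependent Pde1b at 0.62 and the cyclic AMP enzyme Pde4d at -0.69, each with no overlap (limma adjusted p = 0.0718, 0.145 and 0.162).

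Of 18 kinase targets and cyclic GMP transport genes, 1 passed the threshold as higher and 0 as lower, where 1.93% and 0.694% of all genes did. By mean, 8 of the 18 were higher and 10 lower in the knockout. Trpc6, a cation channel that the kinase phosphorylates, had log2 values of 6.09, 4.77 and 5.60 in controls 30, 74 and 75 and of 7.54, 7.48 and 7.96 in knockouts 72, 73 and 86. Its control values were all under the filter level, so it was tested only through its knockout signal, and its fold depends on how dim values are treated. The fitted difference was 2.17 (SE 0.33, limma adjusted p = 0.0264), and 1.84 with a pseudocount of 16. The call was lost without control 75 or any 1 knockout array (limma adjusted p = 0.0689 to 0.104). Rgs2, a regulator of G protein signalling activated by the kinase, stood at -1.10 and the calcium pump Atp2a2 at -0.58, both with no overlap (limma adjusted p = 0.0819 and 0.119).

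In the cyclic AMP arm, 2 of 20 genes passed the threshold as higher and 0 as lower, where 1.93% and 0.694% of all genes did. By mean, 5 of the 20 were higher and 15 lower in the knockout, and the list median was -0.16. Adcy7, an adenylate cyclase known from blood cells, had values of 9.62 to 9.82 in control and 11.00 to 11.53 in knockout arrays and rose by 1.50 (SE 0.17, 2.83-fold, limma adjusted p = 0.00935). Ptger4, a prostaglandin E receptor that raises cyclic AMP, had values of 8.55 to 9.13 and 9.70 to 9.85 and rose by 0.97 (SE 0.18, limma adjusted p = 0.0418). Without control 75 Adcy7 lost its call (limma adjusted p = 0.0509), and Ptger4 kept its call in 1 of 6 fits of 5 arrays, that without control 75. The macrophage marker Csf1r, which missed the threshold (limma adjusted p = 0.138), stood at 9.09 to 10.25 in control and 10.71 to 12.37 in knockout arrays, and its part in these values was not tested. Adcy5, an adenylate cyclase known from smooth and cardiac muscle, stood at -1.12 with no overlap (limma adjusted p = 0.0615).

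**Figure D5:**
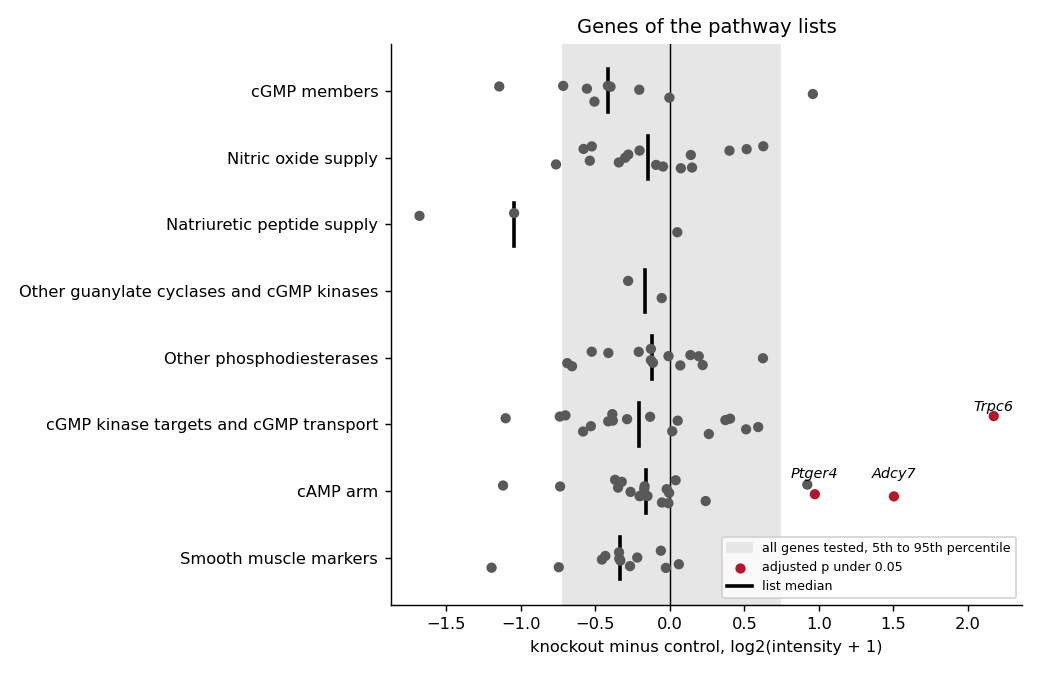
Knockout minus control difference of every tested gene of the members, the 6 pathway lists and the smooth muscle markers, each point a gene and each bar a list median, over the range of the 5th to 95th percentile of all genes tested. Trpc6, Adcy7 and Ptger4 are the 3 genes past the threshold, and the members' median of -0.42 lies left of 0.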

How the data were processed

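Total RNA of 6 samples, 1 per mouse and 3 per group, was labelled with biotin and hybridised to arrays, per the labels' protocols. The authors deposited an intensity on a linear scale for each of 45037 probe sets. Their probe summary and array scaling are not given in the sources used here. Array medians were 62.8 to 72.6, no detection calls were used, and the number of arrays limits the precision. In the platform annotation of 2016, 34945 probe sets have 1 gene symbol, 932 several and 9160 none. Gucy1a3 and Gucy1b3 were matched through RefSeq synonyms. Groups and animal numbers come from the titles; nothing is stated on litters.

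Intensities were turned to log2(intensity + 1), which understates changes of dim genes, and quantile normalized. Probe sets with a mean under the median of all (6.10) were left out, which left 19252 with 1 symbol. Each gene was represented by its brightest probe set on average, giving 11378 genes. Groups were compared with limma 3.58.1 (R 4.3.3; lmFit, eBayes, 2-sided, Benjamini-Hochberg over all genes; threshold 0.05), tested on simulated data first, and single probe sets also by an exact permutation test. The members and lists were chosen with earlier results of these data known. Named genes are all members, the targeted gene, defining markers and, per pathway list, up to 3 genes with the smallest p. Alternatives were other filters, scalings, pseudocount, prior, weights and probe set rules, and leaving out each array.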

Additional observations from a re-analysis of the deposited data

How the results depend on the processing

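No paired analysis was possible because the animal numbers differ between the groups. Over 16 alternatives, the 9 members gave 143 differences, of which 129 kept direction and side of the threshold, 6 passed it and 8 changed sign. The member count of 0 became 4 with array weights (Gucy1a1 -0.57, Npr1 -0.96, Pde1a 1.06, Pde5a -0.71), where 10.5% of all genes were called, and 1 with smooth muscle centring (Pde1a), where 1 member probe set was called too. With 1 array left out it was 0 to 1 (Pde5a without control 74), and 0 to 0 by probe set. Gucy1b1 changed sign with no normalization (0.038), smooth muscle centring (0.37), the mean of probe sets (0.015), and without control 30, knockout 72 or knockout 73, and ran from -0.26 to 0.31 with 1 array left out. Mrvi1 did so with smooth muscle centring (0.14) and without control 75, and ran from -0.58 to 0.046 with 1 array left out. All genes past the threshold, 299, were 174 with no filter, 166 with the 70th percentile filter, 519 with smooth muscle centring, 1197 with array weights and 47 to 279 with 1 array left out (189 without control 30, 99 without control 75, 47, 115 and 58 without knockouts 72, 73 and 86). Of the calls 73.6% were higher, but 90.2% with no filter, 62.8% with median centring, 97.1% with smooth muscle centring and 49% with array weights. In the 6 lists, cyclic AMP arm included, the 3 calls became 1 with no filter and 5 with median or smooth muscle centring. They became 8 with array weights and 1 to 4 with 1 array left out (1 without control 75 or any knockout). Ptger4 lost its call with no filter or median centring, and Trpc6 with no filter (limma adjusted p = 0.102, 0.0512 and 0.0622). The filter at the median of probe sets with 1 symbol, added after seeing the data, called 258 genes and 0 members. Causes of these shifts were not tested. Signal over background was not analysed here, and the 3 arrays per group limit the precision.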
